A study of Mus musculus with 4 samples.

Results

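A set of 10 extracellular matrix genes was followed here in RNA from isolated mitochondria and a rest fraction of adult mouse hearts. They were chosen by name, as secreted matrix genes translated at the endoplasmic reticulum of cells other than cardiomyocytes: Col1a1, Col1a2, Col3a1, Col4a1, Col4a2, Col6a1, Fn1, Sparc, Dcn and Lum. All 10 were found among the 15746 genes of the deposited table, and all 10 were among the 12150 genes tested, which had a value of 10 or more in 2 or more of the 4 libraries. The hearts were wild type (WT), with no treatment in the labels other than the fractionation, and came from adult mice. Each fraction had 2 libraries, called isolated mitochondria (replicates 1 and 2) and rest (replicates 1 and 2).

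The rest fraction was the pellet of a slow spin of the homogenized heart, which the paper calls cell debris. The mitochondria were pelleted from the supernatant by a faster spin. What stayed in solution after that spin was removed, so it is in neither fraction. The tissue of both fractions had been washed and then incubated with trypsin on ice before it was homogenized. Digitonin, which opens cholesterol-rich membranes, and RNase A were applied to the mitochondria alone. The fragmentation time of the mitochondrial RNA was also adjusted separately, so the fraction cannot be told apart from these steps. Nothing in the labels says that the replicates came from separate animals, so a p-value measures the spread between these libraries, which may be technical.

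Collagens are built from 3 chains wound around each other, and the matrix they form with fibronectin, SPARC and small proteoglycans holds the cells of the heart wall in place. Their mRNAs carry the code for a signal peptide at the start, which directs the translating ribosome to the endoplasmic reticulum, where the chains are folded and modified before secretion. In the heart, fibroblasts are known as the main source of fibrillar collagens and of decorin and lumican, while endothelial and mural cells also make type IV collagen for basement membranes. Endoplasmic reticulum and mitochondria are held together at contact sites in many cells.

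The messages themselves show which features these genes share with many others and which set the collagens apart. The coding starts of 3 of them are given below, each over its first 20 codons from the start codon, with the codons that have T at the middle base (NTN, which code for phenylalanine, leucine, isoleucine, methionine or valine) in capitals, because a row of such codons is the usual core of a signal peptide.
Col4a1: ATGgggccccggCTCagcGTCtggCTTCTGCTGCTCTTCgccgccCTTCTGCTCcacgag
Sparc: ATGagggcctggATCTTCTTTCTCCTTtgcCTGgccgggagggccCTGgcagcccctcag
Dcn: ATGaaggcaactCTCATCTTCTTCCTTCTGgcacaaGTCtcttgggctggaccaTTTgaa
Of these first codons, 35% (Col4a2) to 55% (Col4a1) were NTN over 9 of the 10 genes, against a median of 30% in 10552 tested nuclear protein-coding genes. Of those genes, 35.8% reached 35% or more, so the start alone does not single the matrix genes out.

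The collagen messages differ from the others further in. Codons that begin with GG (GGN) code for glycine, which a collagen helix needs once in each triplet of residues. In the stretches below, from the middle of the longest run of such codons, the GG that opens each triplet of codons is in capitals.
Col1a1, codons 663 to 686: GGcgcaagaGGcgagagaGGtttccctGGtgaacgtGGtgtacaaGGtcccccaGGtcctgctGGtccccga
Col3a1, codons 668 to 691: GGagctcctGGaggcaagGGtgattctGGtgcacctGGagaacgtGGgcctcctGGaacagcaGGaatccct
Col4a1, codons 91 to 114: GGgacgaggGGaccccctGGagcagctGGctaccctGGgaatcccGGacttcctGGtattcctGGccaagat
The longest unbroken run held 338 such repeats in Col1a1, 339 in Col1a2 and 344 in Col3a1, but 40 in Col4a1, 66 in Col4a2 and 87 in Col6a1. In Fn1, Sparc, Dcn and Lum it was at most 2. Runs of 40 or more were found in 26 of the 10552 genes (0.246%). GGN codons made up 26.8% to 28.6% of the coding sequence in the type I, III and IV chains, 15.3% in Col6a1 and 4.44% to 8.2% in the other 4 genes, against a median of 6.23%. The representative spliced transcripts ranged from 1758 bases (Dcn) to 8315 bases (Fn1), with a median of 3294 over the tested nuclear protein-coding genes, and all 6 collagen transcripts were at least 4100 bases long.

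The values are counts of reads per gene that the authors divided by one size factor for each library and rounded, here called normalized counts. From the spacing of the values, a read was worth about 3.87 and 2.55 normalized counts in mitochondria 1 and 2, and 0.264 and 0.365 in rest 1 and 2, which puts the depth at roughly 47400000, 32100000, 26300000 and 23500000 reads on genes. Mitochondrial chromosome genes took 97.6% and 93.5% of the mitochondrial libraries and 63.2% and 67.5% of the rest, so nuclear genes were sampled far less deeply in the mitochondria. The 10 matrix genes rested on about 43 to 752 reads each in the mitochondrial libraries and on about 231 to 6870 in the rest. The 10 cardiomyocyte markers examined, among them Ttn and Myl3, were all tested and present in both fractions.

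No matrix gene passed the test between fractions, but the genes did not all lie alike. Col1a1, Col1a2, Col3a1, Col6a1 and Dcn were above both rest libraries in both mitochondrial libraries, with ratios of the group means from 1.98 to 2.72. Col4a1, Col4a2, Fn1, Sparc and Lum overlapped between the fractions. On the authors' scaling, the first mitochondrial library held more than the second in all 10 genes. In such bulk libraries, RNA from fewer cells of a type and less RNA per cell cannot be told apart.

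**Figure D1:**
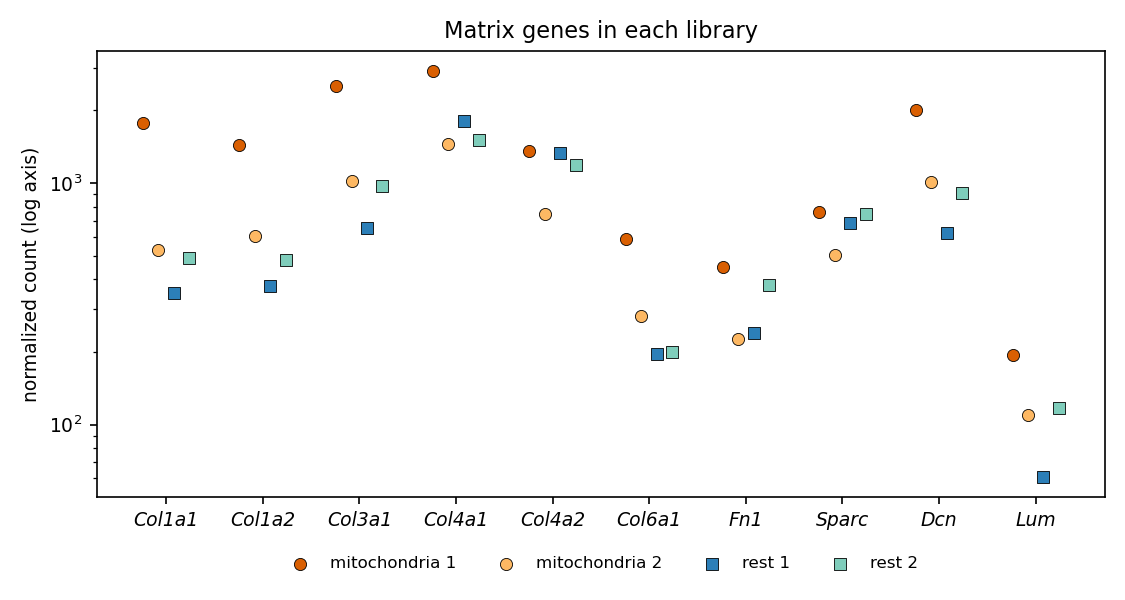
Normalized counts of the 10 matrix genes in each library, on a log axis. Each gene has 4 points, circles for the mitochondrial and squares for the rest libraries. The mitochondria 1 point is the highest of the 4 for every gene, from 194 (Lum) to 2912 (Col4a1).

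The fibrillar collagens come first. Col1a1, on chromosome 11 (94936224 to 94953042, GRCm38, plus strand), codes for the chain present in 2 copies in type I collagen, the main fibre of the heart wall. It had 1766 and 528 normalized counts in mitochondria 1 and 2, and 351 and 492 in rest 1 and 2. Both mitochondrial values were above both rest values, but the second exceeded the higher rest value by little. The log2 fold change of mitochondria over rest was 1.21 ± 0.61 (SE; 95% interval -0.38 to 2.81), with an adjusted p of 0.25 by limma.

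Col1a2 (chromosome 6, 4504814 to 4541544, plus strand), the other chain of type I collagen, had 1433 and 602 normalized counts in the mitochondria and 377 and 483 in the rest. The order of the 4 libraries was that of Col1a1. Its log2 fold change was 1.12 ± 0.45 (SE; 95% interval -0.06 to 2.30; limma adjusted p = 0.178).

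Col3a1 (chromosome 1, 45311538 to 45349706, plus strand) codes for type III collagen, which forms thin fibres together with type I. Its values were 2529 and 1025 in the mitochondria and 654 and 969 in the rest, again separate but close between mitochondria 2 and rest 2. The log2 fold change was 1.02 ± 0.49 (SE; 95% interval -0.26 to 2.29; limma adjusted p = 0.233).

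Col4a1 and Col4a2, which code for type IV chains of the basement membrane, did not follow. Col4a1 (chromosome 8, 11198423 to 11312826, minus strand) had 2912 and 1457 normalized counts in the mitochondria and 1815 and 1509 in the rest, so the mitochondrial values lay on either side of the rest. Its log2 fold change was 0.32 ± 0.37 (SE; 95% interval -0.66 to 1.29; limma adjusted p = 0.596). Col4a2 (chromosome 8, 11312805 to 11449287, plus strand), whose product pairs with that of Col4a1 in one helix, had 1356 and 747 in the mitochondria and 1337 and 1191 in the rest. It was the lowest of the 10 by fold change, -0.33 ± 0.32 (SE; 95% interval -1.17 to 0.52; limma adjusted p = 0.527), and its fractions overlapped.

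Col4a1 and Col4a2 are transcribed away from each other and share their first 22 exon bases in the GENCODE M21 annotation, at chr8:11312805-11312826 (GRCm38), shown here on the minus strand, that of Col4a1, because this stretch belongs to both genes.
Col4a1 and Col4a2 shared bases: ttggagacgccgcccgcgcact
Exon overlaps with further genes were annotated for Col3a1 with Gm47302 (141 bases, same strand), Col4a2 with antisense Gm15419 (43 bases) and Fn1 with antisense Apol7d (292 bases). Reads in these stretches are uncertain, and whether the counting used strand is not given in the sources used here.

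Col6a1 (chromosome 10, 76708792 to 76726168, minus strand) codes for a chain of type VI collagen, which forms beaded microfibrils around muscle cells. It had 589 and 283 normalized counts in the mitochondria and 197 and 200 in the rest. All mitochondrial values were higher, and the rest libraries were nearly equal. Its log2 fold change of 1.04 ± 0.38 (SE; 95% interval 0.04 to 2.03) was the only one whose interval left out 0, with a limma p of 0.0438 before adjustment and 0.156 after it.

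Fibronectin and SPARC, which link cells to collagen and bind collagen on its way into the matrix, had fold changes near 0 with wide intervals. Fn1 (chromosome 1, 71585520 to 71653200, minus strand) had 449 and 227 normalized counts in the mitochondria and 239 and 379 in the rest, a log2 fold change of 0.08 ± 0.42 (SE; 95% interval -1.01 to 1.18; limma adjusted p = 0.903). Sparc (chromosome 11, 55394500 to 55423183, minus strand) had 759 and 503 in the mitochondria and 681 and 745 in the rest, a log2 fold change of -0.20 ± 0.25 (SE; 95% interval -0.86 to 0.45; limma adjusted p = 0.608). For both genes the mitochondrial libraries lay on either side of the rest.

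Decorin and lumican are small proteoglycans that bind collagen fibrils and set their width. Dcn (chromosome 10, 97479609 to 97518143, plus strand) had 2018 and 1015 normalized counts in the mitochondria and 621 and 911 in the rest, separate by a small margin. Its log2 fold change was 0.93 ± 0.40 (SE; 95% interval -0.12 to 1.97; limma adjusted p = 0.198). Lum, its neighbour on chromosome 10 (97565128 to 97572703, plus strand), was the least abundant by normalized count, with 194 and 110 in the mitochondria and 61 and 117 in the rest, where rest 2 exceeded mitochondria 2. Its log2 fold change was 0.78 ± 0.44 (SE; 95% interval -0.38 to 1.94; limma adjusted p = 0.298).

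By the limma test with Benjamini-Hochberg adjustment over all 12150 genes, 0 of the 10 were called higher and 0 lower at 0.05, where 2.16% of all tested genes were called higher and 1.39% lower. At an unadjusted p under 0.05, 1 of the 10 (Col6a1) was higher and 0 lower, beside 1718 higher and 1965 lower among all genes. Both mitochondrial values exceeded both rest values in 5 of the 10, where 27.7% of all tested genes did so, and in 0 of the 10 were both lower, where 33.4% did. The median log2 fold change of the 10 was 0.85, and that of all tested genes was -0.14 with quartiles of -0.74 and 0.49. An exact permutation test on 1 gene with 2 libraries against 2 cannot give a p under 0.333 (two-sided), and the intervals of Col4a1 and Fn1, up to 1.29 and 1.18, still include a log2 fold change as large as the 1.02 of Col3a1.

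**Figure D2:**
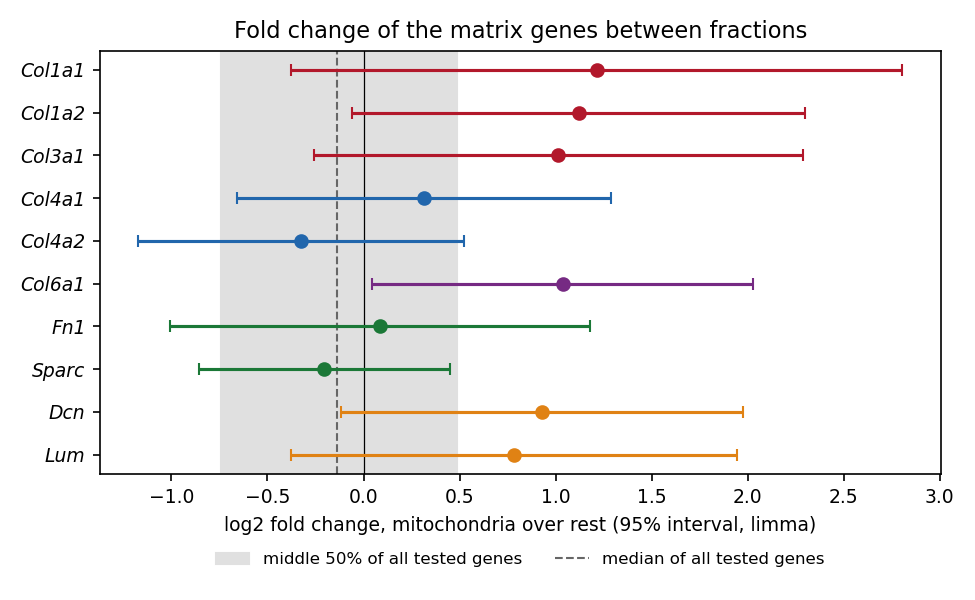
Log2 fold change of mitochondria over rest for each matrix gene (points) with its 95% limma interval (lines), beside the median (dashed line) and the middle 50% (grey) of all tested genes. Of the 10 points, 8 lie above 0 under the authors' scaling (5 where libraries are scaled to their nuclear total and 0 where they are scaled to their full total), and 9 of the 10 intervals include 0.

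The direction depends on the scaling. With libraries set to a common total that includes the mitochondrial chromosome, the median of all genes moved to -3.93, and all 10 matrix genes were called lower, as were 98.9% of all genes. Scaled to the total without the mitochondrial chromosome, the median of all genes was -0.98, the median of the 10 was -0.01, and 5 of the 10 had a positive log2 fold change. Relative to the median of all genes, 8 of the 10 were higher under each of these scalings, and Col4a2 and Sparc were not. The summed normalized counts of the 10 were 0.314% and 0.122% of all nuclear normalized counts in mitochondria 1 and 2, and 0.247% and 0.251% in rest 1 and 2, so that the mitochondrial libraries lay above and below the rest.

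The difference between the mitochondrial libraries was shared by the whole set. On the authors' scaling, mitochondria 1 exceeded mitochondria 2 in 10 of 10 genes, where 50.4% of all tested genes did so. The ratio ran from 1.51 (Sparc) to 3.34 (Col1a1) with a median of 1.99, against a median of 1.02 over all tested genes. These ratios and their intervals depend on that scaling, as the libraries summed to 183395941 and 81928351 normalized counts. The exact 95% counting interval of the ratio, which covers counting error only, was 2.83 to 3.96 for Col1a1, 1.23 to 1.85 for Sparc and 1.15 to 2.72 for Lum, and excluded 1 for all 10. In the rest, only Col4a1 and Col4a2 were higher in replicate 1 than in replicate 2, by ratios of 1.20 and 1.12, and the lowest ratio was that of Lum, 0.521.

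Each fold change moved with the mitochondrial library that was read. Without mitochondria 1 the log2 fold change of Col1a1 was 0.34 and that of Col3a1 0.36, and 6 of the 10 genes had a positive log2 fold change with a median of 0.35. Without mitochondria 2 they were 2.08 and 1.67, and 10 of the 10 were positive with a median of 1.31. Set against the mean of the rest, Col1a1 stood at 4.19-fold in mitochondria 1 and 1.25-fold in mitochondria 2, Col6a1 at 2.97-fold and 1.43-fold, and Sparc at 1.06-fold and 0.705-fold. With 3 libraries limma called 0 genes of the 12150, so these fits decide no call.

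Ratios between the matrix genes do not depend on how the libraries were scaled. Of the summed normalized counts of the 10 genes, the fibrillar collagens Col1a1, Col1a2 and Col3a1 made up 40.9% and 33.2% in mitochondria 1 and 2, and 21.8% and 27.8% in rest 1 and 2. Col4a1 and Col4a2 together made up 30.5% and 33.9% in the mitochondria and 49.8% and 38.6% in the rest. The fractions were thus separate in both groups. The fibrillar share was higher and the share of Col4a1 and Col4a2 lower in the mitochondria. Such separation was common, as 60.2% of the ratios between all pairs of tested genes above 0 in every library were separate between the fractions. Taken alone, Col4a2 was separate (9.68% and 11.5% against 21.1% and 17.0%), but Col4a1 overlapped (20.8% and 22.4% against 28.7% and 21.6%).

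The other shares were separate as well. Dcn and Lum made up 15.8% and 17.3% in the mitochondria and 10.8% and 14.7% in the rest, although Lum alone overlapped, and Col6a1 made up 4.21% and 4.36% against 3.11% and 2.86%. Fn1 and Sparc had the smaller share in the mitochondria, 8.63% and 11.2% against 14.5% and 16.1%. These shares sum to the whole, so that a rise of one group requires a fall of another, and they were not tested.

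**Figure D3:**
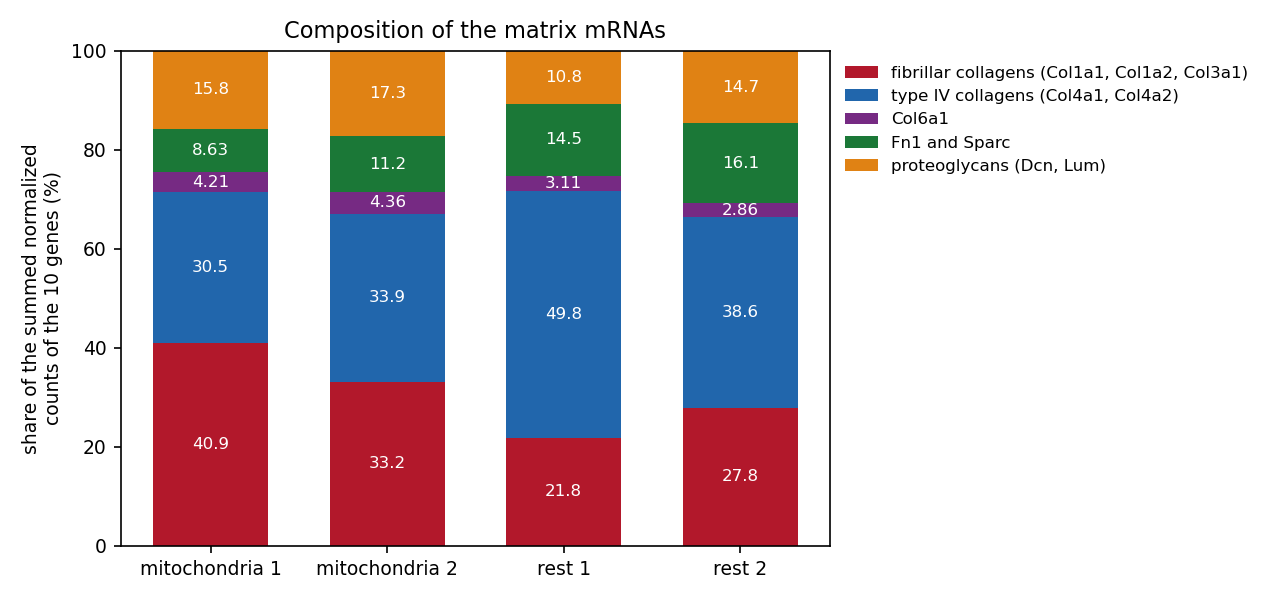
Share in percent of the summed normalized counts of the 10 matrix genes taken by each group, 1 bar per library. The fibrillar share is 40.9% and 33.2% in the mitochondrial bars and 21.8% and 27.8% in the rest bars, and the type IV share runs the other way.

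Among the 45 pairs of matrix genes, the ratio was separate between the fractions in 25 (55.6%), a share near that of all pairs of tested genes, 60.2%. Col4a1 over Col4a2, 2 genes whose products join in a fixed proportion, was 2.15 and 1.95 in the mitochondria and 1.36 and 1.27 in the rest. Col1a1 over Col1a2, whose products also join in a fixed proportion, was 1.23 and 0.877 in the mitochondria and 0.931 and 1.02 in the rest, and thus overlapped. Col1a2 over Sparc was 1.89 and 1.20 against 0.554 and 0.648, and Dcn over Lum, both proteoglycans, was 10.4 and 9.23 against 10.2 and 7.79. Within the fibrillar set no pair was separate, and Dcn was not separate from any of its 3 genes.

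Per kilobase of spliced transcript, which allows genes to be compared, Dcn had the highest level in every library, with 1148 and 577 normalized counts per kb in mitochondria 1 and 2 and 353 and 518 in rest 1 and 2. In the mitochondria Col4a1 (mean 330.2 per kb), Col3a1 (319.4) and Sparc (274.3) followed with ranges that overlapped. In the rest Sparc (310.0) and Col4a1 (251.2) stood above Col3a1 (145.8) and Col1a1 (71.1) in both libraries. Fn1 and Lum were the lowest in the mitochondria, at means of 40.6 and 62.1 per kb, and in the rest at 37.2 and 36.4, where they overlapped.

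Long transcripts as a class had lower fold changes in the mitochondria, and those of the collagens are long. Among tested nuclear protein-coding genes, the median log2 fold change was 1.18 for 507 genes with spliced transcripts under 1000 bases, 0.42 from 1000 to 2000 bases, -0.41 for 2359 genes from 4000 to 6000 bases and -0.66 above 9000 bases. Col1a1, Col1a2, Col3a1 and Col6a1 belong to the class from 4000 to 6000 bases, whose quartiles were -0.83 and 0.06, and all 4 lay above its upper quartile. Col4a1 and Fn1 lay above the upper quartile of the class from 6000 to 9000 bases, which was -0.12, while Col4a2 lay within its middle range. In all, 8 of the 10 lay above the upper quartile of their class, and Sparc and Col4a2 did not.

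With the trend on transcript length removed in each library, 9 of the 10 log2 fold changes were positive, with Sparc the exception, and 0 of the 10 were called, where 0.0412% of all genes were called higher and 0.156% lower. The part of RNA fragmentation or of the RNase step in the length trend was not tested.

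**Figure D4:**
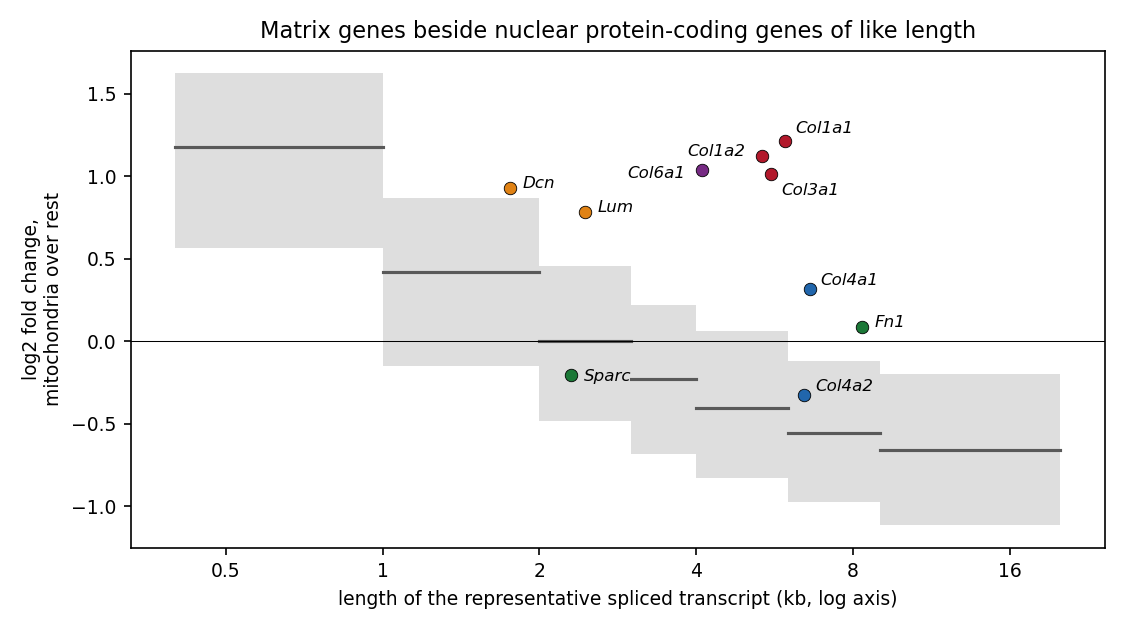
Log2 fold change of mitochondria over rest against the length of the representative spliced transcript, in kb on a log axis. Coloured points are the 10 matrix genes, and horizontal lines with grey boxes are the median and quartiles of nuclear protein-coding genes in 7 length classes, the first and last of which are open-ended. The medians step down from 1.18 to -0.66, and 8 of the 10 genes lie above the box of their own class.

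Genes of the same pathway were counted from 6 further lists with 128 names, of which 115 were tested. By limma, 0 were called higher and 0 lower, beside 2.16% and 1.39% of all tested genes. At an unadjusted limma p under 0.05, 18 were higher and 11 lower, beside 1718 and 1965 of all 12150 genes. Of the 115, 39 were separate and higher and 24 separate and lower, beside 27.7% and 33.4% of all tested genes. These shares of all genes also stand beside the counts of each list below. The median log2 fold change of the 115 was 0.28. Of the lists, the other collagens had the highest median, 0.84 over 17 tested genes, with 9 genes separate and higher in the mitochondria and 2 separate and lower. Col6a6, a chain of type VI collagen, had 596 and 194 normalized counts in the mitochondria and 125 and 82 in the rest, a log2 fold change of 1.74 ± 0.59 (SE; limma adjusted p = 0.137). Col4a5, a type IV chain on the X chromosome, had 170 and 61 against 175 and 178 (-0.79 ± 0.51; limma adjusted p = 0.353). Without mitochondria 2 its log2 fold change was -0.0538. Other type IV chains lay differently and are named here after their values were seen. Col4a3 had 50 and 54 against 23 and 30, and Col4a4 had 105 and 115 against 71 and 71. Both were separate and higher (limma adjusted p = 0.113 and 0.129), while Col4a6 overlapped (8 and 13 against 10 and 17).

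Laminins, nidogens and basement membrane proteoglycans lay on both sides. Lamb1, a laminin beta chain, had 2266 and 750 normalized counts in the mitochondria and 502 and 433 in the rest (log2 fold change 1.48 ± 0.55 SE; limma adjusted p = 0.157). Lama5, a laminin alpha chain of vessel walls, had 97 and 107 against 470 and 254 (-1.75 ± 0.34; limma adjusted p = 0.06). The list had a median of 0.65 over 14 tested genes, 7 separate and higher and 4 separate and lower.

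Among the other glycoproteins and proteoglycans the median was 0.41 over 34 tested genes, and 27 had a positive log2 fold change. Thbs2, thrombospondin 2, had 875 and 408 normalized counts in the mitochondria and 186 and 187 in the rest (log2 fold change 1.67 ± 0.39 SE; limma adjusted p = 0.0733). Postn, periostin, had 97 and 92 against 72 and 267 (-0.55 ± 0.64; limma adjusted p = 0.589), so that its rest libraries lay on either side.

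The enzymes that fold and modify collagen in the endoplasmic reticulum had a median of -0.04 over 14 tested genes. P4hb, the beta subunit of prolyl 4-hydroxylase, had 546 and 388 normalized counts in the mitochondria and 288 and 344 in the rest (log2 fold change 0.55 ± 0.24 SE; limma adjusted p = 0.203). Plod2, a lysyl hydroxylase, had 54 and 38 against 64 and 91 (-0.74 ± 0.32; limma adjusted p = 0.198). The median of the general endoplasmic reticulum chaperones was 0.55 over 10 tested genes, with 6 separate and higher and 0 separate and lower. Of these, Hsp90b1 had 1933 and 1250 against 881 and 939 (0.77 ± 0.26, limma adjusted p = 0.134). Hspa5 had 1437 and 811 against 1107 and 1145 (-0.06 ± 0.31, limma adjusted p = 0.907) and overlapped.

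Enzymes that crosslink or cleave the matrix, with their inhibitors, had a median of 0.36 over 16 tested genes. Mmp2, a gelatinase, had 542 and 168 normalized counts in the mitochondria and 143 and 155 in the rest (log2 fold change 1.02 ± 0.57 SE, and 0.17 without mitochondria 1; limma adjusted p = 0.298), and Timp3, an inhibitor bound to the matrix, had 395 and 324 against 518 and 602 (-0.64 ± 0.19; limma adjusted p = 0.114). Matrix receptors, together with the TGF-beta and CCN signals and their receptors on the same list, had a median of -0.58 over 20 tested genes, with 2 separate and higher and 12 separate and lower. The median transcript length of this list was 3943.5 bases. Nuclear protein-coding genes from 3000 to 4000 bases had a median of -0.23 and a lower quartile of -0.68. The part of transcript length in the values of this list was not tested. Ddr2, a receptor for fibrillar collagen, had 259 and 390 against 155 and 183 (0.91 ± 0.26; limma adjusted p = 0.107). Dag1, dystroglycan, had 612 and 314 against 932 and 886 (-1.05 ± 0.35; limma adjusted p = 0.133). Of the genes named here and among the markers below, Col4a3, Col6a6, Plod2, Timp3, Ddr2, Pdgfra, Hsp90b1, Myl3 and Ttn overlap another annotated gene. They share 63 to 1733 exon bases with it, and reads there may have been left out or assigned to either gene.

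**Figure D5:**
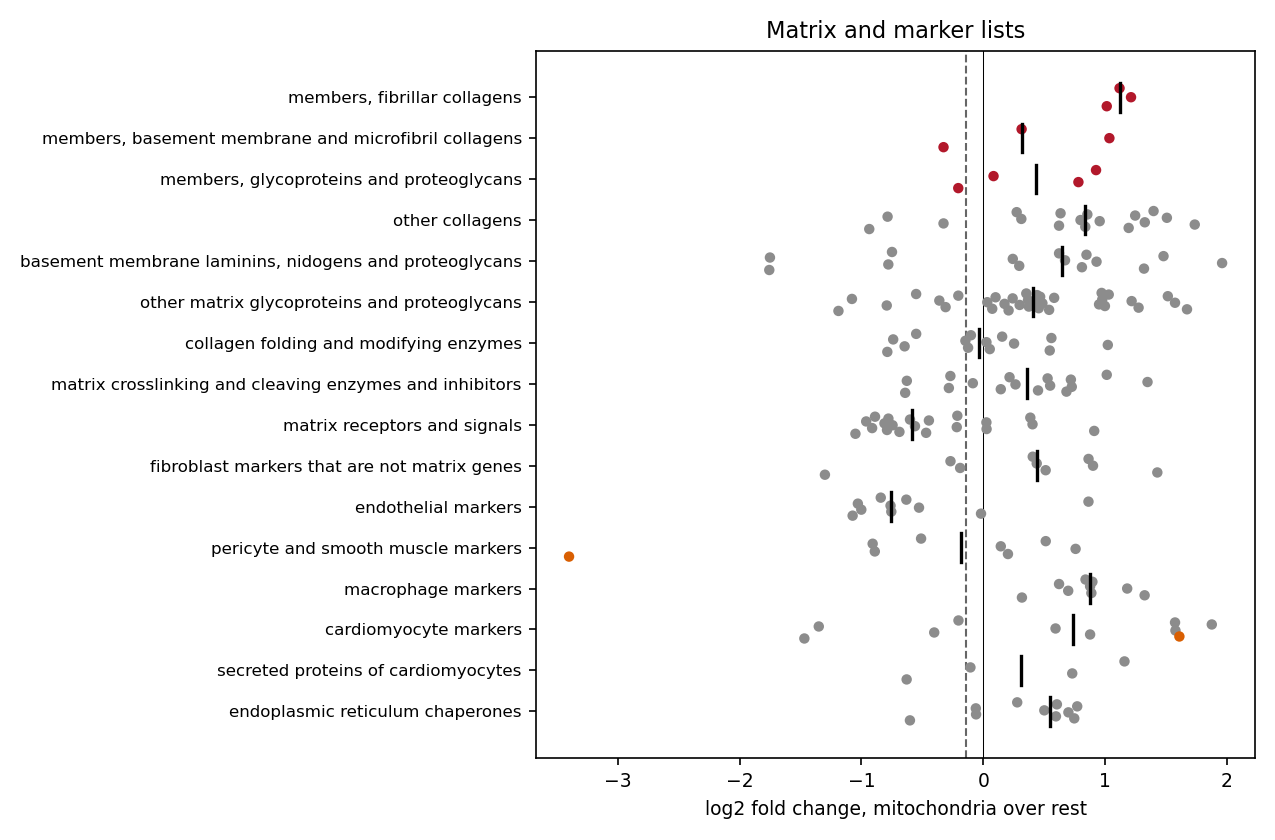
Log2 fold change of mitochondria over rest for each tested gene of the matrix lists and of the marker lists (points), with each list's median (black bar) and the median of all tested genes (dashed line). Red points are the 10 matrix genes under study, and orange points are the 2 genes called at an adjusted p under 0.05 by limma, Myh11 and Myl3. The medians run from -0.76 for endothelial markers to 1.12 for the fibrillar collagens on the authors' scaling, on which all of these signs rest.

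Markers of the cells that make matrix are given beside these values. Fibroblast markers that are not matrix genes summed to 14152 and 6149 normalized counts in mitochondria 1 and 2 and to 3834 and 4750 in rest 1 and 2, with all 9 tested and a median log2 fold change of 0.44. Most of each sum was gelsolin, Gsn, with 11983 and 4569 against 2504 and 3007, and the other 8 summed to 2169 and 1580 against 1330 and 1743, which overlapped. Of the 9, 6 had a positive log2 fold change, 3 were separate and higher, and 1 was separate and lower. The last was Tcf21, a fibroblast transcription factor named here after its values were seen (4 and 8 against 12 and 20). Its mitochondrial values lay near the counting floor, as 3 reads are worth 11.6 and 7.65 normalized counts in mitochondria 1 and 2. Pdgfra, a defining receptor of fibroblasts, had 442 and 270 against 172 and 208 (0.87 ± 0.30 SE; limma adjusted p = 0.14). Vim, vimentin, had 542 and 684 against 553 and 872 (log2 fold change -0.19, limma adjusted p = 0.68) and overlapped. The sums with and without Gsn were higher in mitochondria 1 than in mitochondria 2. So was that of the 10 matrix genes (14005 and 6497 against 6333 and 6996). Single fibroblast markers did not all share this, as Vim and Tcf21 were lower in mitochondria 1. The part of the fibroblast markers in the matrix values was not tested.

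Most macrophage markers moved with the same library, but Cd68, named here after its values were seen, did not (19 and 23 against 9 and 13). Its mitochondrial values rest on few reads, as 3 reads are worth 11.6 and 7.65 normalized counts there. The macrophage markers summed to 1269 and 553 normalized counts in the mitochondria and 394 and 533 in the rest. Of these markers, 9 of 9 had a positive log2 fold change with a median of 0.88. The median ratio of mitochondria 1 to mitochondria 2 was 1.97, close to that of the matrix genes. Mrc1 had 527 and 163 against 129 and 191, and overlapped. By limma 0 of the 9 were called, and 3 were higher at an unadjusted limma p under 0.05, beside 1718 of all 12150 genes. The median transcript length of this list was 1316 bases. Nuclear protein-coding genes from 1000 to 2000 bases had a median of 0.42 and an upper quartile of 0.87. Neither the part of transcript length in the macrophage values nor the part of macrophages in the matrix values was tested.

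Endothelial markers lay the other way, with sums of 3433 and 3009 in the mitochondria and 4967 and 4356 in the rest. Of the 10, 8 were separate and lower, beside 33.4% of all tested genes. Their median log2 fold change was -0.76, and 0 were called. At an unadjusted limma p under 0.05, 8 were lower and 1 higher, beside 1965 and 1718 of all 12150 genes. The median transcript length of this list was 4043 bases. Nuclear protein-coding genes from 4000 to 6000 bases had a median of -0.41 and a lower quartile of -0.83. The part of transcript length in the endothelial values was not tested. Flt1 had 376 and 344 normalized counts against 801 and 675, and Vwf, the one separate and higher, had 492 and 375 against 243 and 228. In the list of pericytes and smooth muscle, Myh11, smooth muscle myosin, was called lower with 43 and 61 against 380 and 800 (log2 fold change -3.40 ± 0.42 SE; limma adjusted p = 0.0427). That list had a median of -0.18 over 8 tested genes, of which 4 had a positive log2 fold change. Of the 8, 1 was separate and higher and 3 were separate and lower. The one separate and higher was Kcnj8, with 108 and 87 against 61 and 53 (log2 fold change 0.76, limma adjusted p = 0.123). No tested marker of any list was at 0 in a library.

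Cardiomyocyte markers lay on both sides, with 6 separate and higher and 2 separate and lower. Myl3, a short myosin light chain message, was called higher with 11634 and 9923 normalized counts in the mitochondria and 3976 and 3106 in the rest (log2 fold change 1.61 ± 0.23 SE; limma adjusted p = 0.0469). With the length trend removed its log2 fold change was 0.60 and the call was lost (limma adjusted p = 0.19). Ttn, titin, which has the longest transcript of the list, had 126054 and 100863 against 330174 and 295269 (-1.47 ± 0.54; limma adjusted p = 0.157). Secreted proteins of cardiomyocytes had a median of 0.31 over 4 tested genes, none of which was called by limma or had an unadjusted p under 0.05.

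The genes whose pattern over the 4 libraries was most like the median of the 10 were found among 5546 other genes with a mean above 50 normalized counts, by the Euclidean distance of log2 values centred on each gene's own mean. They were Rcn3 (distance 0.144), Adamts2 (0.148), Col5a2 (0.161), Zfp251 (0.17) and Scn7a (0.195). Of the 10 themselves, Dcn was nearest at 0.218 and Col4a2 farthest at 1.18. Rcn3 had 101 and 46 normalized counts in the mitochondria and 31 and 45 in the rest, and Col5a2, a chain of type V collagen, had 290 and 128 against 107 and 143. With 4 libraries, the likeness lies mainly in the excess of mitochondria 1.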

How the data were processed

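RNA from 4 libraries of WT mouse hearts, 2 of isolated mitochondria and 2 of the rest, had been sequenced from 10 ng total RNA with a stranded total RNA kit for small inputs. Per the submitters' processing notes, the authors trimmed reads with Trimmomatic (0.39), aligned them to mm10 with STAR (2.7.10a) and counted them per gene with featureCounts (2.0.2); the study's methods name other releases of the aligner and the counter and state that reads on several genes or places were left out. The deposited values are a signal, the counts divided by DESeq2 (1.30.1) size factors and rounded to whole numbers by the authors, which puts a common unit on the libraries but holds less than 1 normalized count per read in the rest, so whole reads were not recovered and no count model was fitted. Columns of other samples numbered 0.

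Where 2 or more libraries had a value of 10 or more, a gene was tested on log2(normalized count + 1) by limma (3.58.1, R 4.3.3) with a mean-variance trend, two-sided, with Benjamini-Hochberg adjustment and a threshold of 0.05. Fold changes are on that scale, which understates the change of low genes. The scripts were tested on simulated data. Reads per value were estimated from the spacing of the values, and 3 reads correspond to 11.6 and 7.65 normalized counts in mitochondria 1 and 2 and to 0.793 and 1.10 in rest 1 and 2. Counting intervals and these floors cover counting error only.

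Positions, transcript lengths, overlaps and coding sequences came from GENCODE M21 (GRCm38), in which 99.1% of the deposited genes had the same position. Genes named beyond the 10 members came from the 2 highest and 2 lowest log2 fold changes of each list. Only genes with a mean of at least 50 normalized counts entered this choice. The 5 nearest in pattern were added. Exceptions were Tcf21, Cd68, Col4a3, Col4a4 and Col4a6, named after their values were seen. The members and lists were chosen with earlier results of these data known. Names of the lists not in the table, among them Col2a1, Acan, Timp1 and Tagln, were not analysed here, and the coding start of 1 member, with the codon share taken from it, is not reported here. The alternatives were other pseudocounts, filters, scalings, a variance model without trend, removal of the length trend, the replicate number as a block, and leaving out each library.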

Additional observations from a re-analysis of the deposited data

How the results depend on the processing

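The calls for the 10 matrix genes, 0 higher and 0 lower, remained 0 under pseudocounts of 0.1 and 10, no filter, a mean above 50, recomputed size factors, the total without the mitochondrial chromosome, no mean-variance trend, the length trend removed and each library left out. They changed under the library total, where 10 were lower. A fit of the replicate number as a block called 0 of the 10, and with the length trend removed it called 2 higher, Col1a2 (1.41, adjusted p = 0.0477) and Col6a1 (1.21, adjusted p = 0.0441), of 332 higher (2.73% of all tested genes) and 405 lower. The replicate differences in the fractions had a correlation of 0.13 across genes over 2 pairs, so the libraries share a number and the pairing is not established.

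Calls over all genes, 262 higher and 169 lower, became 470 and 309 with the block, 0 and 0 with a pseudocount of 0.1, 536 and 580 with 10, 279 and 630 with no filter, 790 and 670 with a mean above 50, 2 and 12022 with the library total, 129 and 3819 with the total without the mitochondrial chromosome, 24 and 143 without the variance trend, and 5 and 19 with the length trend removed. With any library left out, 0 genes were called, from 0 to 0 in every list, although 590 to 2333 were higher and 468 to 3324 lower at an unadjusted p under 0.05. For the 6 wider matrix lists, 0 and 0 became 4 and 1 with the block, 2 and 1 with a pseudocount of 10, 6 and 3 with a mean above 50, 0 and 114 with the library total, 0 and 26 with the total without the mitochondrial chromosome, and 15 and 1 with block and length. For the marker and endoplasmic reticulum lists, 1 and 1 became 4 and 2 with the block, 0 and 0 with a pseudocount of 0.1, 4 and 3 with 10, 1 and 2 with no filter, 5 and 7 with a mean above 50, 2 and 1 with recomputed size factors, 0 and 60 with the library total, 0 and 15 with the total without the mitochondrial chromosome, 0 and 0 without the variance trend or with the length trend removed, and 2 and 6 with block and length. The cause of these moves was not tested, except that fewer genes or libraries enter some fits.

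Scaled to the library total, log2 fold changes were -2.77 (Col1a1), -2.86 (Col1a2), -2.97 (Col3a1), -3.67 (Col4a1), -4.31 (Col4a2), -2.93 (Col6a1), -3.89 (Fn1), -4.18 (Sparc), -3.06 (Dcn), -3.16 (Lum), -2.23 (Col6a6), -2.50 (Lamb1), -2.30 (Thbs2), -3.43 (P4hb), -2.95 (Mmp2), -3.05 (Ddr2), -3.10 (Pdgfra), -3.11 (Vwf), -3.07 (Mrc1), -2.37 (Myl3) and -3.21 (Hsp90b1). Scaled to the total without the mitochondrial chromosome, the sign turned for Col4a1 (-0.55), Fn1 (-0.78), Lum (-0.0735), P4hb (-0.32) and Hsp90b1 (-0.0914). The length trend removed turned Col4a2 (0.0345), with or without the block.

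With 1 library left out in turn, values ran from 0.34 to 2.08 for Col1a1, 0.50 to 1.75 for Col1a2, 0.36 to 1.67 for Col3a1, -0.18 to 0.81 for Col4a1, -0.76 to 0.10 for Col4a2, 0.51 to 1.56 for Col6a1, -0.41 to 0.58 for Fn1, -0.50 to 0.0915 for Sparc, 0.43 to 1.42 for Dcn and 0.32 to 1.25 for Lum. Postn ran from -1.49 to 0.39, positive without rest 2, Mmp2 from 0.17 to 1.86, Col4a5 from -1.52 to -0.0538 and Mrc1 from 0.0539 to 1.74. Myl3 (1.43 to 1.79) and Myh11 (-3.94 to -2.87) were not called without any 1 library, nor with a pseudocount of 0.1, no variance trend or the length trend removed (adjusted p = 0.19 and 0.0543), and Myl3 not with the total without the mitochondrial chromosome (0.75). The lone library of a fraction is then assumed to vary like the others. Depth limits the mitochondrial values most, where 1 read is worth several normalized counts and Lum rests on about 43 reads in mitochondria 2.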
